A study of Mus musculus with 2 samples.

Results

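Oligodendrocyte subtype genes are described here, a set of 10 genes that set mature oligodendrocytes of the mouse thalamus apart from each other: Klk6, Ptgds, Anln, Apod, Car2, Il33, Hopx, Serpinb1a, Trf and S100b. All 10 were found by symbol among the 32285 genes of the count tables. They were chosen by measured values, namely how they correlate with or exclude each other over oligodendrocytes and how high they are in cells outside the lineage, so those values are given as a description and carry no test. The data are single-cell RNA sequencing of thalamic tissue from 2 untreated wildtype C57BL/6J mice, a common inbred strain, at 2 months of age, with 1 droplet library per mouse (10x Genomics 3' chemistry). There is 1 group of 2 animals, so every comparison sets cells of the same 2 mice against each other.

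Oligodendrocytes wrap axons in myelin and arise from proliferating precursors through a short committed stage. Mature cells are not uniform. Some express the secreted protease Klk6, and others express Ptgds, the enzyme that makes prostaglandin D2. Iron, which oligodendrocytes carry in large amounts, is bound outside cells by transferrin, the product of Trf.

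Some members were grouped by how they went together over cells, and others by how widely they were found. Klk6, Hopx, a small homeodomain protein that does not itself bind DNA, and S100b, a calcium-binding protein, rose and fell together. Ptgds and Il33, a nuclear cytokine of the interleukin 1 family, formed an opposed pair. Apod, a lipocalin that carries lipids, Trf and Car2, a cytosolic carbonic anhydrase, were found in nearly all of these cells. Anln, an actin-binding scaffold protein that supports septins in myelin, and Serpinb1a, an inhibitor of serine proteases, correlated positively with both Klk6 and Apod.

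The 250 bases before the start of transcription are shown for the strongest pair of each opposed set, Klk6 with S100b and Ptgds with Il33, because the members of each pair moved together over cells. The sequences are RefSeq's, on GRCm38.p6, read 5′ to 3′ on the strand of the gene, each from the first start site in the table. Klk6 lies at chr7:43824294-43824543 on the plus strand, S100b at chr10:76253586-76253835 on the plus strand, Ptgds at chr2:25469750-25469999 on the minus strand and Il33 at chr19:29924863-29925112 on the plus strand. Capitals mark a match to 1 of 3 motifs searched on both strands, ACAAAG (the core bound by SOX factors), CTGGCAC (bound by MYRF, a regulator of myelin genes) and TGACTCA (AP-1).
Klk6: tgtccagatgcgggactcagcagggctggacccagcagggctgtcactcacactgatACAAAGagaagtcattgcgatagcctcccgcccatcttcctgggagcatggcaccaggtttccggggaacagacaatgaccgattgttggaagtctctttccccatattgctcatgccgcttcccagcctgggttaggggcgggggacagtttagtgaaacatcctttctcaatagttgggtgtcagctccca
S100b: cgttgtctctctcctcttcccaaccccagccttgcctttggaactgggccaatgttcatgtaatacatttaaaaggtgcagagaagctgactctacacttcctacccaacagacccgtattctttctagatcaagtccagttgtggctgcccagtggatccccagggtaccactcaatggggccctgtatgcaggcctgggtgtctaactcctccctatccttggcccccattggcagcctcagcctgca
Ptgds: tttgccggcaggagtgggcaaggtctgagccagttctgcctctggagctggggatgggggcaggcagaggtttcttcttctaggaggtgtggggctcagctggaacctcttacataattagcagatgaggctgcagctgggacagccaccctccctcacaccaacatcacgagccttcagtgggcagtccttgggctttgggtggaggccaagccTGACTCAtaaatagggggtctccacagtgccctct
Il33: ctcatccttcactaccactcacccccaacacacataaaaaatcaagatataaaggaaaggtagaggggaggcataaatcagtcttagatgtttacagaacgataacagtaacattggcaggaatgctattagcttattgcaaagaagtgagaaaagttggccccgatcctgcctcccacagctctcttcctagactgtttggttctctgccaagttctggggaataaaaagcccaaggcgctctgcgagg
ACAAAG stood 193 bases before the first Klk6 start and, outside the windows shown, 84 bases before that of Apod. The window of another Klk6 start site, at chr7:43825200-43825449, held none of the 3 motifs. TGACTCA stood 35 bases before the Ptgds start, and ACAAAG, outside the window shown, 24 bases past it on the opposite strand. The windows of S100b and Il33 held none of the 3 motifs. Among 32851 mouse promoter windows of 300 bases, which also run past the start, 18.71% held ACAAAG, 5.011% CTGGCAC and 5.202% TGACTCA. These windows are longer than the 250 bases shown. ACAAAG is thus common, and a match of any of the 3 in a single promoter is only a description.

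The libraries held 163418203 unique molecular identifiers (UMIs, counted RNA molecules) in 7889 barcodes of mouse 1 and 204839993 in 12107 of mouse 2, and the 2 libraries shared 36 barcodes. After filtering, 6187 and 9187 cells remained, in 33 clusters. Of these, 1970 and 3300 cells were oligodendrocyte-like, 143 and 966 precursor-like, and 47 and 144 committed precursor-like. The oligodendrocyte-like class joined 4 clusters, and the mice filled them unequally. Cluster 0 held 1541 cells of mouse 1 and 337 of mouse 2, cluster 1 held 19 and 1758, cluster 2 held 346 and 878, and cluster 12 held 64 and 327. Levels are given as CPM: the cells of a class were summed within a mouse, and the sum was scaled to a common total. Each mouse is 1 library, so animal and library cannot be told apart.

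Levels outside the lineage separated the members. Klk6, Anln and Serpinb1a were highest in oligodendrocyte-like cells. Klk6 stood there at 115 CPM in mouse 1 and 134 CPM in mouse 2, and every other class lay below 7 CPM apart from ependymal-like cells of mouse 2 (45.6 CPM from 22 UMIs). Anln reached 430 and 499.5 CPM in oligodendrocyte-like cells, and Serpinb1a 352 and 296 CPM. The next classes for both genes, ependymal-like cells at up to 110 CPM of Anln and 99.6 CPM of Serpinb1a, rested on 4 cells of mouse 1 and 29 of mouse 2.

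Ptgds was the most abundant member, with 12320 and 6813 CPM in oligodendrocyte-like cells. Fibroblasts of the vascular and leptomeningeal type followed with 2096 and 3172 CPM, below both mice's oligodendrocyte-like values. Smooth muscle-like cells had 1308 and 458 CPM. A Ptgds UMI was also found in 47.0% and 21.6% of glutamatergic neuron-like cells once each cell was thinned to 5000 UMIs. Before thinning the shares were 98.95% and 77.67%. The part of free RNA in the lower levels was not tested. No conclusion is drawn for other classes with shares near these values.

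Apod and Il33 were as high or higher in fibroblasts. Apod had 9360 and 16340 CPM in vascular leptomeningeal fibroblast-like cells (21 and 48 cells) against 2392 and 2004 CPM in oligodendrocyte-like cells, with no overlap between the classes. For Il33 these were 500.1 and 785 CPM against 662 and 551 CPM, and the 2 classes overlapped. Astrocyte-like cells came next for Il33, at 87.0 and 115 CPM.

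Trf had 3997 and 3988 CPM in oligodendrocyte-like cells. Border macrophage-like cells had 1366 and 874.5 CPM of Trf, fibroblast-like cells 1055 and 819 CPM and microglia-like cells 503 and 572 CPM. Border macrophage-like and fibroblast-like values overlapped. Car2 had 2958 and 2403 CPM in oligodendrocyte-like cells and far less in the next class, astrocyte-like cells, at 171 and 195 CPM.

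Hopx and S100b were not highest in mature oligodendrocytes. Hopx was higher in habenular neuron-like cells (104.5 and 218 CPM) than in oligodendrocyte-like cells (32.9 and 61.0 CPM), and pericyte-like cells (99.1 and 48.7 CPM) overlapped the oligodendrocyte-like values. The few ependymal-like cells had 821 and 180.5 CPM. S100b was highest in committed precursor-like cells, at 1532 and 1034 CPM. Its oligodendrocyte-like values, 239 and 343 CPM, overlapped those of precursor-like cells at 256 and 303 CPM, and astrocyte-like cells had 182 and 234 CPM.

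**Figure D1:**
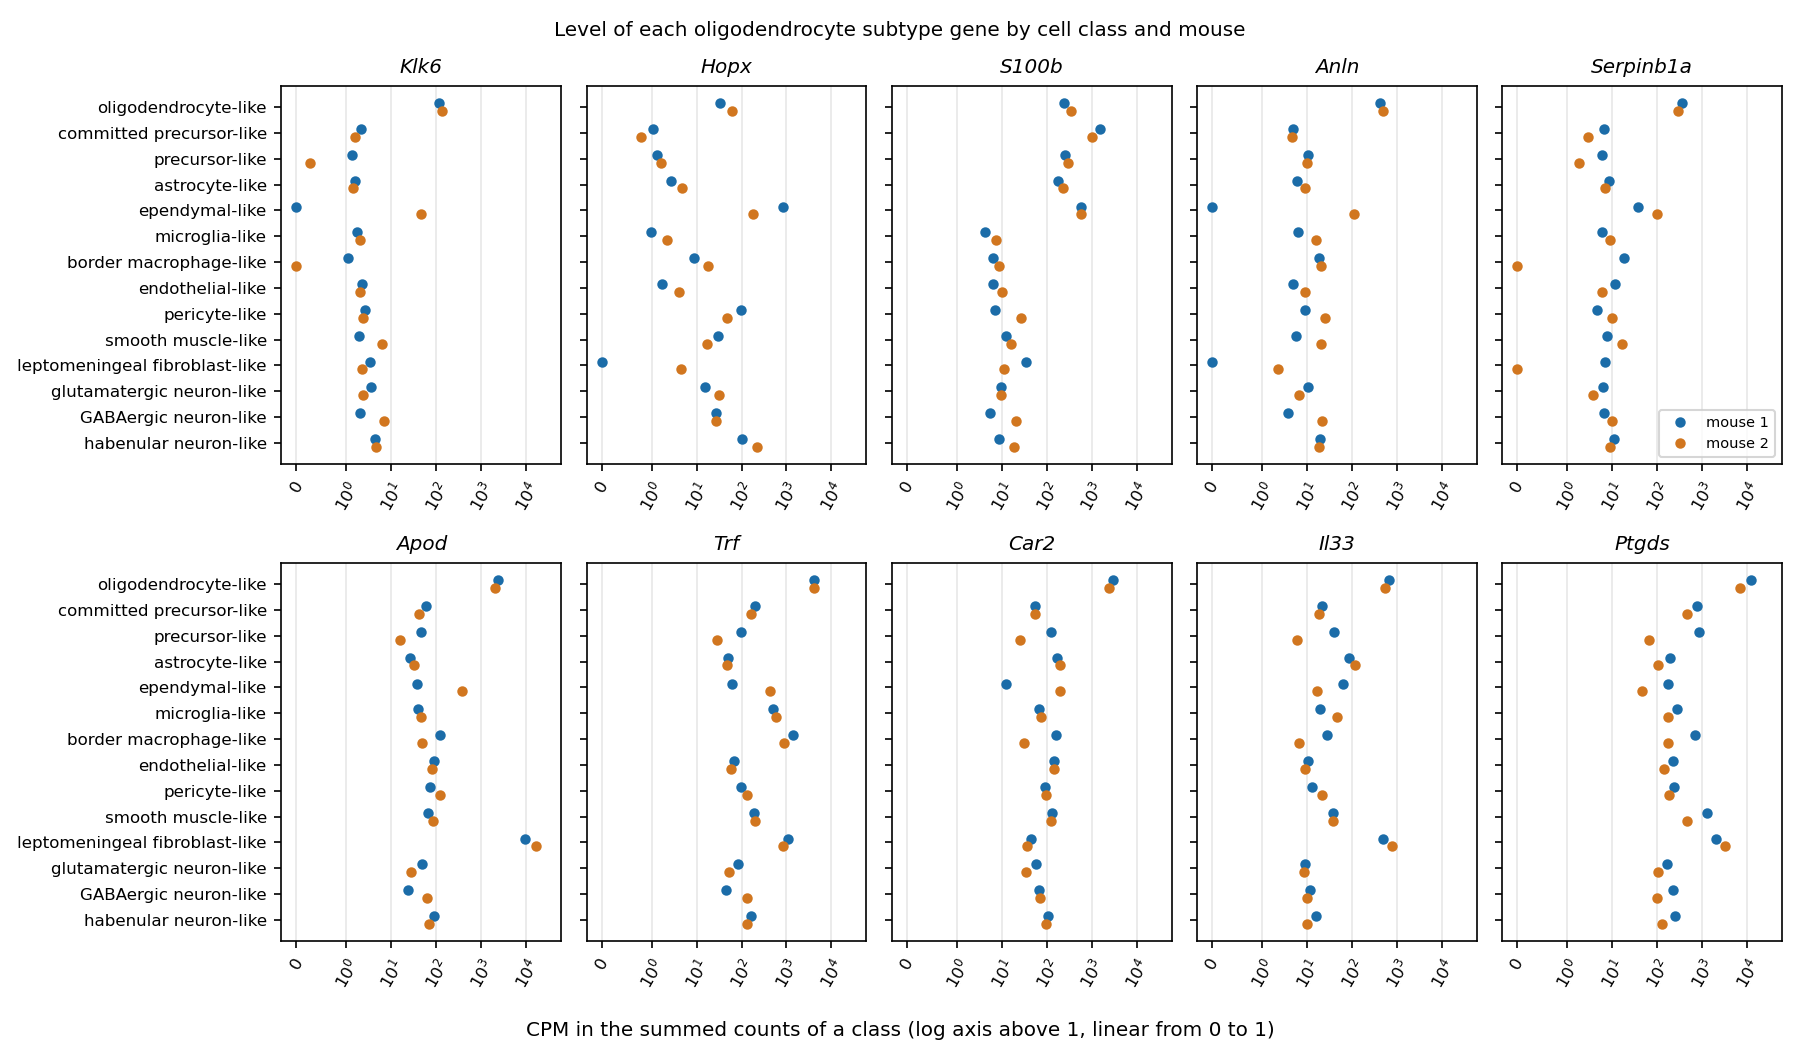
CPM of each member (horizontal, log axis above 1) in 14 cell classes, 1 point per mouse. Klk6, Anln and Serpinb1a stand apart in the oligodendrocyte-like row, while Apod peaks in fibroblasts and S100b in committed precursor-like cells.

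Mature oligodendrocyte-like cells were then set against the 2 earlier stages. The rule for choosing members did not name this contrast. It took genes that differ over mature oligodendrocytes, with earlier results of these data known. A higher level in mature cells was therefore likely beforehand, and the counts of members called describe the set. The fit covered 17351 genes over 26 sums of 13 classes. Against precursor-like cells, 9 of 10 members were called higher, where 14.8% of all genes tested were called higher, in edgeR's quasi-likelihood test (a call needs a log2 fold change of at least 1 and p below 0.05 after Benjamini-Hochberg adjustment). In the main fit Klk6 changed most, with 1.35 and 0.263 CPM in precursor-like cells (3 and 4 UMIs), a log2 fold change of 8.56 ± 0.59 (SE) and an adjusted p of 1.09e-09. Serpinb1a followed at 7.20 ± 0.63, Apod at 6.68 ± 0.65 and Trf at 6.48 ± 0.58. The sizes depended on the processing: over the main fit and its alternatives Klk6 ran from 4.56 to 8.94 and Serpinb1a from 4.65 to 7.41. Ptgds was 5.18 ± 0.69 higher, although precursor-like cells of mouse 1 had 841 CPM of it and those of mouse 2 only 66.3 CPM. S100b did not pass, with a log2 fold change of 0.45 ± 0.42 and an adjusted p of 0.421 from edgeR.

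Against committed precursor-like cells, 9 members were again called higher, against 10.4% of genes tested. Anln rose most, from 4.88 and 4.76 CPM, with a log2 fold change of 7.05 ± 0.65 and an edgeR adjusted p of 8.77e-08. Hopx rose by 6.11 ± 0.67 from 2 and 3 UMIs, and Klk6 by 6.50 ± 0.53. S100b alone was called lower, at -1.87 ± 0.43 with an adjusted p of 0.00227 in edgeR's test, where 13.6% of genes were called lower. Both comparisons share the mature cells, so their counts are not independent. The S100 genes beside the member had 7 of 11 called lower against committed cells, with S100a6 at 39.1 ± 9.6 against 336 ± 11.1 CPM (SD, n = 2 mice) and S100a1 at 150 ± 40.7 against 564 ± 114 CPM. Their median log2 fold change was -2.54, beside 0.11 over all genes tested.

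**Figure D2:**
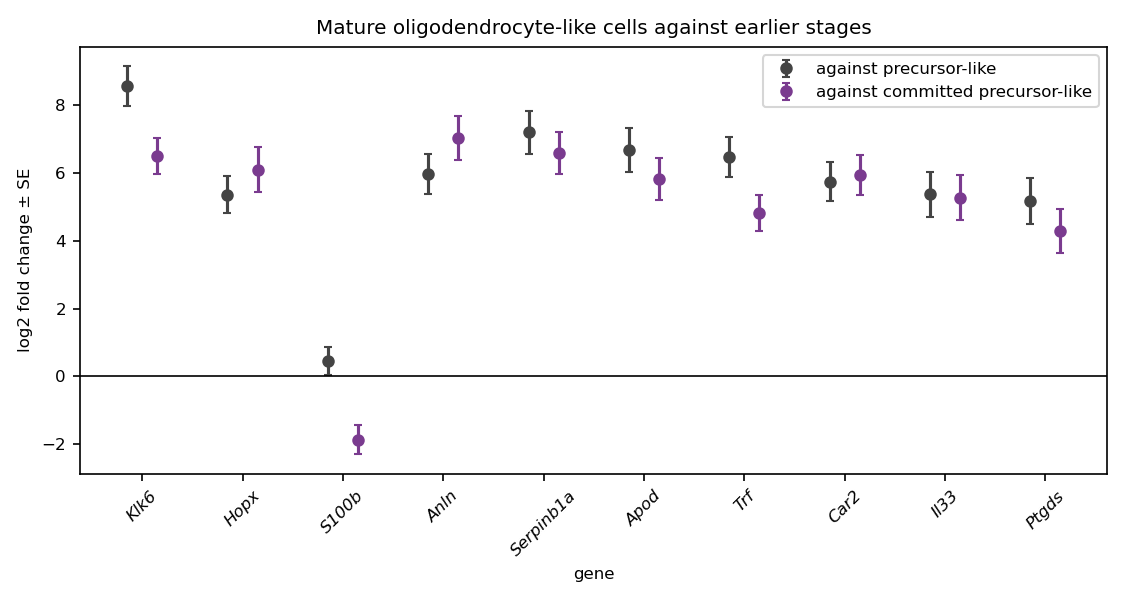
Log2 fold change with its standard error for each member in mature oligodendrocyte-like cells against precursor-like and committed precursor-like cells. Of the 10 genes, 9 lie far above 0 in both, and S100b lies near 0 against precursors and below 0 against committed cells.

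The neighbouring pathway genes moved less evenly than the members. Of 18 iron handling genes, 4 were higher and 5 lower in mature than in precursor-like cells, where 14.8% of all genes tested were called higher and 22.2% lower. Fth1, the ferritin heavy chain that stores iron, rose from 448 ± 172 to 14020 ± 707 CPM (SD, n = 2). Cp, a ferroxidase, fell from 138 ± 25.2 to 5.47 ± 0.57 CPM. Of 17 prostaglandin genes, 2 were higher and 3 lower, and Pla2g4a, which frees arachidonic acid, rose from 1.82 ± 0.62 to 63.4 ± 2.31 CPM. Among 12 carbonic anhydrases and acid-base transporters 4 were higher, with Car14 at 174 ± 9.97 against 3.88 ± 3.44 CPM, and 5 were lower, with Car8 at 0.465 ± 0.332 against 116 ± 9.33 CPM. Of 14 interleukin 33 pathway genes, 3 were higher and 2 lower. Il1rap, a subunit of the receptor, rose from 250 ± 22.6 to 439 ± 4.95 CPM, a call that was lost with DESeq2's size factors and Wald test. The median log2 fold change was -0.09 over the iron list, -0.59 over the prostaglandin list, -0.11 over the carbonic anhydrase list and 0.97 over the interleukin 33 list, beside 0.0043 over all genes tested.

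Within mature cells, a gate of at least 5 UMIs of Mog, Mag and Ermn together per 10000 took 2203 of 6187 cells (35.61%) in mouse 1 and 3563 of 9187 (38.78%) in mouse 2. Of the gated cells, 89.33% and 92.39% were in oligodendrocyte-like clusters, 30 and 66 were committed precursor-like, 160 and 55 unnamed, and 45 and 150 of another named class. Just inside the limit, at 5 to 6, lay 18 and 38 cells, and just outside, at 4 to 5, lay 35 and 38. Each cell was thinned to 5000 UMIs, which left out 176 and 326 shallower cells and kept 2027 and 3237.

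At that depth the members differed widely in how many cells carried them. A Trf UMI was found in 99.16% of cells in mouse 1 (95% exact binomial interval 98.66 to 99.51, for counting error only) and 98.73% in mouse 2. Car2 was found in 98.22% and 97.19%, and Apod in 97.68% and 95.46%. Ptgds was found in 94.33% and 83.38%, with a median of 54 and 22 UMIs a cell and a highest value of 390 and 287. Klk6 was found in 12.43% (11.03 to 13.95) and 17.76% (16.46 to 19.12), and Hopx in only 7.40% and 11.8%. S100b lay between, at 27.87% and 31.67%. The variance of Ptgds was 52.0 and 48.7 times its mean, against 3.06 and 3.19 for Car2, so Ptgds was the more uneven of these abundant genes.

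The correlations that the choice of members used are given over these cells as Pearson's r of log counts, with 2027 and 3237 cells from 2 libraries at equal thinned depth. Klk6 correlated with S100b at 0.703 and 0.724 and with Hopx at 0.675 and 0.607. Ptgds correlated with Il33 at 0.601 and 0.700. Between Klk6, Hopx and S100b on one side and Ptgds and Il33 on the other all values were negative, such as Klk6 with Ptgds -0.549 and -0.529, Klk6 with Il33 -0.442 and -0.445, and Ptgds with S100b -0.589 and -0.606. Klk6 with Apod was 0.389 and 0.461, with Trf 0.333 and 0.355, with Anln 0.405 and 0.466 and with Serpinb1a 0.311 and 0.274. Serpinb1a went further with Apod, at 0.465 and 0.464, and Ptgds with Car2 was 0.262 and 0.265. Apod and Trf, both secreted carriers, reached 0.682 and 0.705, and Car2 with Trf 0.513 and 0.555. Car2 stood near 0 with Klk6, at 0.0175 and 0.0455. In oligodendrocyte-like clusters only, Car2 with Trf was weaker, at 0.230 and 0.279, and Ptgds with Trf moved from -0.104 and -0.109 to -0.337 and -0.341. Apod with Car2 fell there from 0.429 and 0.443 to 0.217 and 0.235. Klk6 with Apod was 0.417 and 0.487 in these clusters, and Klk6 with Trf 0.387 and 0.415.

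**Figure D3:**
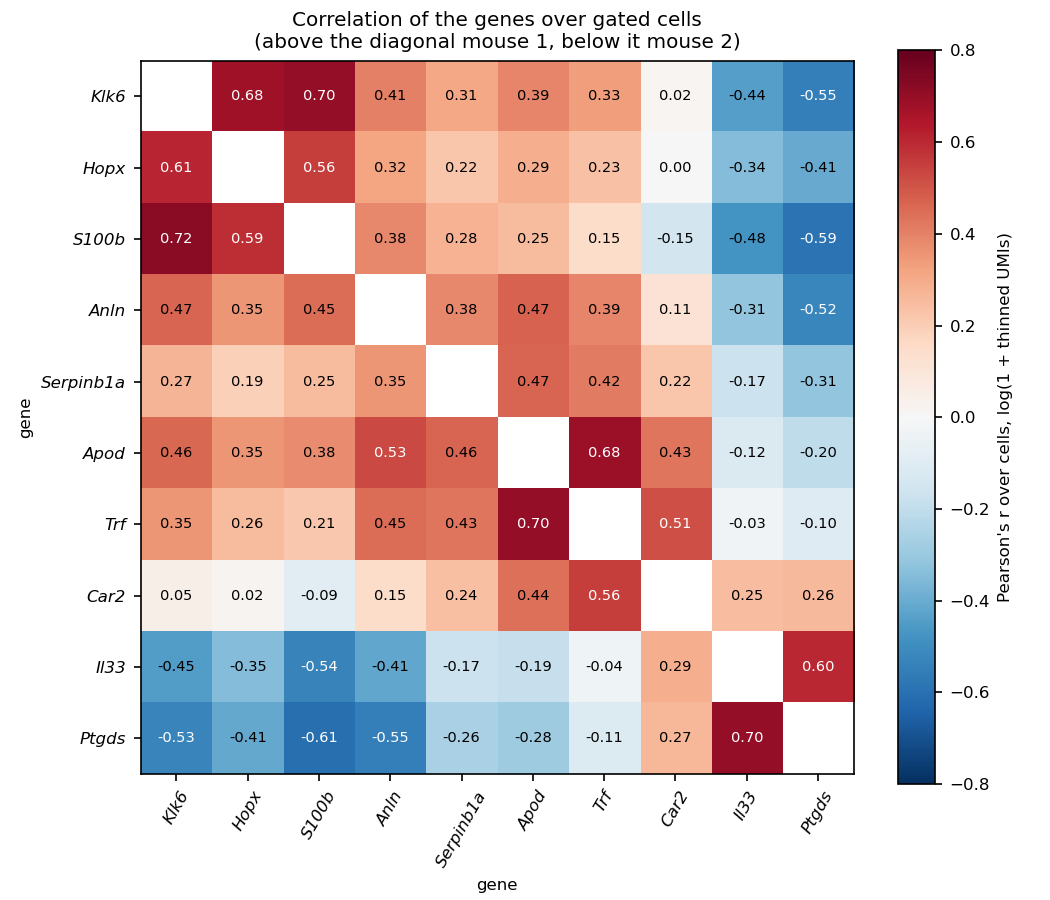
Pearson's r over gated cells for the 45 pairs of members, mouse 1 above the diagonal and mouse 2 below it, with colour from blue (negative) to red (positive). The Klk6, Hopx and S100b block and the Ptgds and Il33 pair are red inside and blue against each other.

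Klk6-positive cells (at least 2 thinned UMIs) numbered 170 in mouse 1 (8.387%) and 354 in mouse 2 (10.94%). Another 82 and 221 cells had 1 Klk6 UMI. The remaining cells, without a Klk6 UMI, were ranked by Ptgds within each mouse and divided into a low, a middle and a high group of like size, giving 596 and 897 Ptgds-high cells and 601 and 896 Ptgds-low cells. Klk6-positive cells were also deeper, with a median of 34947.5 and 21401 UMIs against 23802.5 and 13874 in Ptgds-high cells before thinning, and the part of this in the differences was not tested.

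Hopx was carried by 61.18% (53.41 to 68.54) and 62.71% (57.44 to 67.77) of Klk6-positive cells and by 1.634% and 3.794% of cells without Klk6. For S100b these shares were 92.94% and 97.46% against 20.17% and 19.87%. Il33 went the other way, at 20.59% and 13.84% of Klk6-positive cells against 88.17% and 79.98%. Exclusion was incomplete for Ptgds: 65.88% and 34.46% of Klk6-positive cells still had a Ptgds UMI. Glutamatergic neuron-like cells had 47.0% and 21.6% at the same thinned depth, and the part of free RNA in either share was not tested. Cells with a single Klk6 UMI lay between, with Hopx in 20.73% and 26.7% and Il33 in 50% and 36.65%.

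In the summed counts, Klk6-positive cells were set against the mean of the Ptgds-high and Ptgds-low groups, so the middle group of 578 and 869 cells without Klk6 is not in these values. S100b stood at 1387 and 1370 CPM in Klk6-positive cells and at 122 and 150 CPM in that mean. Hopx stood at 225 and 277 against 6.74 and 16.4 CPM, and Anln at 995 and 1016 against 321 and 294 CPM. Ptgds stood at 1752 and 580.5 against 15010 and 9292 CPM, and Il33 at 136 and 54.9 against 685 and 585 CPM. Trf (6343 and 5619 against 3430 and 2968 CPM), Apod (4648 and 3768 against 1957 and 1322 CPM) and Serpinb1a (670 and 449 against 283 and 203 CPM) were higher with Klk6 in both mice. Car2 differed little, at 2801 and 2220 against 2759 and 2062 CPM.

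**Figure D4:**
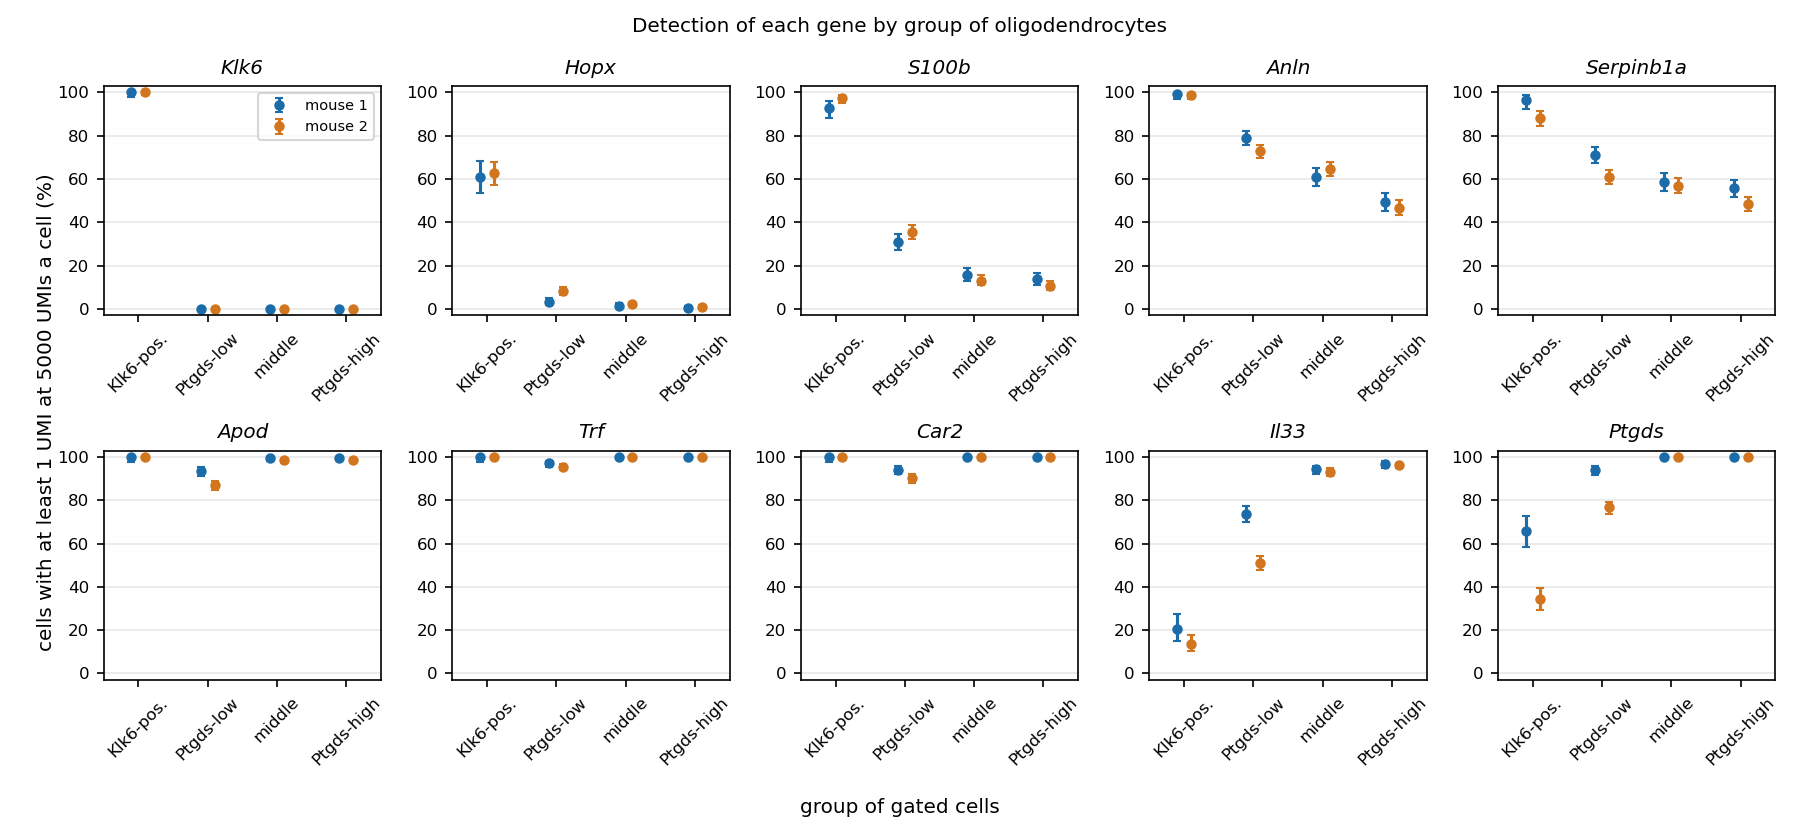
Percent of gated cells with at least 1 UMI of each member at 5000 UMIs a cell, by group and mouse, with 95% exact binomial intervals. Hopx and S100b drop from the Klk6-positive group to the others, Il33 and Ptgds climb, and Apod, Trf and Car2 stay near 100% apart from a dip in Ptgds-low cells.

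The genes most like each member over gated cells were taken from 7377 compared. They come from the same cells as the correlations of the members and are a description. For Klk6 they were Anxa5 (r of 0.558 and 0.564), a calcium-dependent phospholipid-binding protein, then Selenop, Enpp6, Pmp22 and Ldhb. The most opposed were Opalin (-0.479 and -0.534), a myelin membrane protein, Cd9 and Erbb4. For Ptgds the most alike were Apoe (0.570 and 0.640), a lipid carrier, Opalin, Qdpr, Cd9 and Ckb, and the most opposed were Enpp6 (-0.637 and -0.631), Selenop and Cntn3. S100b was most like Enpp6 (0.593 and 0.617), and Hopx most like Anxa5 (0.492 and 0.443). Trf, Apod and Car2 were each most like Fth1, at 0.728 and 0.705, 0.648 and 0.639, and 0.614 and 0.677. Il33 was most like Opalin (0.424 and 0.592), and Anln and Serpinb1a most like Selenop (0.517 and 0.570, 0.464 and 0.420).

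Genes outside the members were tested between Klk6-positive cells and the Ptgds-high and Ptgds-low cells without Klk6, over 6 sums. Of 14924 genes, 996 were called higher (6.67%) and 1299 lower (8.7%) at an adjusted p below 0.05 and a log2 fold change of at least 0.5. The count was 788 without the mouse as a block. In oligodendrocyte-like clusters only it was 2297 of 13695, with 8.45% higher and 8.32% lower. Fold changes are against the mean log level of the 2 groups without Klk6. The largest rise in the subtype list was that of Nkx2-9, a homeobox transcription factor, at 101 ± 26.9 against 3.33 ± 0.50 CPM (SD, n = 2), with a log2 fold change of 6.39 ± 0.22 and an edgeR adjusted p of 1.48e-05. Anxa5 stood at 269 ± 30.4 against 22.9 ± 3.56 CPM, and Enpp6, a choline phosphodiesterase, at 493 ± 17.3 against 164 ± 40.3 CPM. For Enpp6 that mean joined unlike groups, with 10.7 ± 2.03 CPM in Ptgds-high and 318 ± 78.5 CPM in Ptgds-low cells. The subtype list had 8 of 20 genes higher and 5 lower.

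Of 24 myelin structural genes 3 were higher and 6 lower. Opalin fell from 824 ± 19.1 to 146 ± 42.9 CPM and Cd9, a tetraspanin, from 715 ± 56.9 to 125 ± 28.3 CPM. Olig2, a lineage transcription factor, fell from 160 ± 2.69 to 78.7 ± 1.97 CPM. Ermn and Ugt8a, 2 of those higher, were no longer called with oligodendrocyte-like clusters only. Of 10 S100 genes 4 were higher, among them S100a13 at 281 ± 17.8 against 153 ± 10.7 CPM and S100a6 at 80.0 ± 13.6 against 42.6 ± 3.62 CPM. Of 10 kallikreins, their receptors and serpins, 5 were higher and 1 lower. Klk9 and Klk10, named after their values were seen, were among those higher but stayed at 1.13 to 1.81 and 1.43 to 1.51 CPM. Pdgfa, a growth factor for precursors, stood at 270 ± 34.0 against 139 ± 21.1 CPM.

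Fth1 rose from 11630 ± 1584 to 19240 ± 1400 CPM and Tfrc, the transferrin receptor, from 34.8 ± 10.97 to 59.9 ± 11.1 CPM, calls lost without the mouse block. Of 11 prostaglandin genes 1 was called, Pla2g4a, at 143 ± 5.66 against 42.5 ± 5.43 CPM. Of 14 cholesterol synthesis genes 3 were higher and 1 lower, with Sqle at 68.4 ± 5.06 against 37.1 ± 4.67 CPM and Insig1 at 51.1 ± 2.64 against 80.7 ± 15.5 CPM. Of 22 immediate early and stress genes 1 was higher and 8 lower, with Nfkbia at 38.4 ± 4.58 against 75.7 ± 11.1 CPM. Of 13 lipocalins, apolipoproteins and lipid carriers 3 were lower, with Apoe at 257 ± 93.9 against 1084 ± 191 CPM. The calls of Apoe and Insig1 were lost without the mouse block, those of Apoe and Opalin without the filter on low counts, and that of S100a6 at a mitochondrial limit of 5%. The median log2 fold change was -0.03 over the myelin list, 0.39 over the subtype list, -0.31 over the S100 list, 0.50 over the kallikrein list, 0.37 over the cholesterol list, -0.61 over the stress list and -0.43 over the lipid carrier list, beside -0.03 over all genes tested. The S100 median was 0.69 with oligodendrocyte-like clusters only, over 6 genes of which 4 were higher and 1 lower. Outside the lists, Cdkn1c, an inhibitor of the cell cycle, stood at 52.7 ± 8.77 against 4.06 ± 0.04 CPM, and Piezo2, a mechanosensitive channel, at 50.8 ± 21.6 against 7.41 ± 5.74 CPM. Pcdh7, a protocadherin, fell from 313 ± 93.2 to 30.9 ± 6.12 CPM and Gfra1, a receptor for glial cell line-derived factor, from 86.3 ± 14.5 to 12.5 ± 3.64 CPM.

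Ptgds-high cells were compared with Ptgds-low cells among those without Klk6. Here 576 of 14924 genes were higher (3.86%) and 2686 lower (18.0%), and without the mouse block 136 in all. Neuron markers summed higher in Ptgds-low cells: the 11 glutamatergic neuron markers summed to 8.21 and 17.3 per 10000 UMIs, against 1.39 and 3.15 in Ptgds-high cells. The median cell differed little, at 1.19 and 2.76 against 1.17 and 2.46, so that a minority of cells carried the sum. Precursor markers also summed higher in Ptgds-low cells, at 9.89 and 15.8 against 5.99 and 7.38. Their median cell was lower, at 5.26 and 6.09 against 5.77 and 7.19. Microglia markers summed to 2.76 and 1.40 against 1.02 and 0.338. Smooth muscle markers in mouse 1 (0.104 against 0.672) and erythrocyte markers in mouse 2 (0.406 against 1.12) were lower in Ptgds-low cells. In the other mouse each was higher there, smooth muscle markers at 0.451 against 0.198 and erythrocyte markers at 13.1 against 10.1. The part of these markers in the calls was not tested. In oligodendrocyte-like clusters only, 987 of 13695 genes were called, 426 higher (3.11%) and 561 lower (4.1%). The single genes named next passed the test in both versions, and without the mouse block the calls of Apoe, Fabp5 and Olig2 were lost. Those of Apoe and Kit were lost without the filter on low counts. Enpp6 was lower in Ptgds-high cells, at 10.7 ± 2.03 against 318 ± 78.5 CPM, as was Selenop, a selenium transport protein, at 130 ± 18.9 against 484 ± 9.83 CPM. Apoe was higher, at 1715 ± 149 against 453 ± 233 CPM, with Fabp5, a fatty acid carrier, at 816 ± 3.04 against 504 ± 72.2 CPM. Olig2 was higher at 193 ± 3.89 against 127 ± 9.26 CPM. Outside the lists, Kit, a receptor tyrosine kinase, stood at 80.0 ± 27.2 against 8.72 ± 3.25 CPM and Adamts1, a secreted protease, at 65.6 ± 19.1 against 19.6 ± 2.16 CPM. Of 24 myelin structural genes 9 were higher, and 1, Olig2, with oligodendrocyte-like clusters only. The median log2 fold change of that list was 0.42, and 0.11 with oligodendrocyte-like clusters only, beside -0.0019 and 0.01 over all genes tested.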

How the data were processed

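Per the labels, libraries were made with the 10x 3' kit, and the submitters' processing notes list mm10, Cell Ranger 7.1.0 and Seurat 5, with no roles. The deposited values are counts of UMIs per gene and barcode. No source used here states whether intron reads were counted. Barcodes under 500 genes or 1000 UMIs, or above 15% mitochondrial UMIs, were dropped, and Scrublet (in scanpy 1.11.5), at an expected 0.8% per 1000 barcodes, removed 179 and 251 doublets (2.812% and 2.659%, where 6.311% and 9.686% were expected). Clusters came from 2000 variable genes without the members, 30 principal components and Leiden at resolution 1 (leidenalg 0.10.2), named "-like" from marker lists with at least 3 detected. Gene positions are from GENCODE vM21, promoters from RefSeq.

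Counts summed per mouse and class, or per mouse and group of cells, went into edgeR 4.0.16 under R 4.3.3 with limma 3.58.1 (TMM, filterByExpr, robust quasi-likelihood fit with mouse as a block, since all groups come from the same 2 animals). The class fit had 12 residual degrees of freedom and that of cell groups 2. Clustering and testing used the same counts, which makes p-values somewhat too small. Scripts were tested on simulated data. DESeq2 1.42.0 was an alternative.

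The members and gene lists were chosen with earlier results of these data known. Named were all members, the 3 genes most like each (5 for Klk6 and Ptgds, with the 3 most opposed), and from each of 12 lists up to 4 called genes of the largest change, agreeing in sign between the mice and reaching 50 CPM on 1 side, plus up to 6 each way outside the lists between groups of oligodendrocytes. The text gives a part of these, and a few are not reported here. Car2, Serpinb1a and Trf had no promoter entry.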

Additional observations from a re-analysis of the deposited data

How the results depend on the processing

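Between Klk6-positive cells and those without Klk6, 2295 genes were called with the mouse as a replicate block and 788 without it. Between Ptgds-high and Ptgds-low cells these were 3262 and 136, and 987 with oligodendrocyte-like clusters only, an alternative chosen after seeing the data. The other alternatives stayed within 1.5 times of each of the 4 total counts. By direction, the 576 genes higher in Ptgds-high cells became 1018 at a mitochondrial limit of 5%, 372 at a gate of 10 and 274 when cells were split into 2 Ptgds groups, and the 1299 lower in Klk6-positive cells became 2063 after thinning to 3000 UMIs and 865 at the mitochondrial limit of 5%. Without the block, mature against precursor-like cells gave 5957 calls instead of 6421, and against committed cells 3694 instead of 4160. DESeq2's size factors moved the median log2 fold change of all genes against precursor-like cells from 0.0043 to -0.19. Leaving out 1 mouse leaves 1 sum a group, which gives values and no count of calls. The S100b difference against precursor-like cells then was 0.18 without mouse 1 and turned to -0.096 without mouse 2, and the cause was not tested. Under 6 alternatives, the 10 members gave 120 values against the 2 earlier stages. The sizes moved, as given above for Klk6 and Serpinb1a, while all values kept the outcome of the main fit. For S100b against precursor-like cells that outcome was no call. Of the named genes in the Ptgds comparison, 3 changed sign: with oligodendrocyte-like clusters only Itpr2 had 0.32 and Susd4 0.25, and at a mitochondrial limit of 5% Ttr had 0.16. Of 45 correlations, 41 kept their sign under all 9 alternatives. The gate with few markers of other classes left 0 Klk6-positive cells in mouse 1 and could not be used. Counts of Klk6 and Hopx were few in committed precursor-like cells, where they rest on 2 to 6 UMIs a mouse in 47 and 144 cells.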

Other observations

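Anillin works with septins, the filament proteins that stabilise myelin. Of 15 genes of the anillin, septin and cytokinesis list, 6 were higher and 5 lower in mature than in precursor-like cells (14.8% and 22.2% of all genes tested), with a median log2 fold change of 0.09 beside 0.0043 over all genes tested. Sept4 rose from 55.9 ± 38.4 to 1593 ± 240 CPM (SD, n = 2 mice) and Sept8 from 199 ± 26.5 to 349 ± 1.70 CPM. Against committed precursor-like cells 2 of the 15 were higher, Sept4 and Sept8, a share near the 10.4% of all genes tested. Klk6-positive cells had Sept8 at 485 ± 22.3 CPM, against 290 ± 24.3 CPM in the mean of Ptgds-high and Ptgds-low cells, a difference called under all 13 alternatives.

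Cholesterol is the main lipid that myelin needs. Of 14 cholesterol synthesis genes, 11 were higher in mature than in precursor-like cells, where 14.8% of all genes tested were called higher. Their median log2 fold change was 1.52, beside 0.0043 over all genes tested. Hmgcs1 rose from 74.2 ± 18.8 to 259 ± 52.8 CPM.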
